A study of Mus musculus with 12 samples.

Results

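The granins and the prohormone processing genes were examined in pancreatic islets of mice with and without the prolactin receptor, before and during pregnancy. The set holds 10 genes chosen by name: the granins Chga, Chgb, Scg2, Scg3, Scg5 and Vgf, the convertases Pcsk1 and Pcsk2, the convertase inhibitor Pcsk1n and the carboxypeptidase Cpe. A gene was taken as measured when a probe set of the array carried its symbol alone, and this held for 9 of the 10 and for 19938 genes in all. Pcsk2 has no probe set of its own here and is not analysed. Each of the other 9 has 1 probe set.

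RNA came from islets of adult 129Sv mice, isolated with collagenase and hybridised to Affymetrix mouse gene arrays, with 3 biological replicates in each of 4 groups and 12 arrays in all. The groups were non-pregnant (NP) Prlr+/+ mice, NP Prlr-/- mice, Prlr+/+ mice on day 9.5 of pregnancy (P9.5) and P9.5 Prlr-/- mice. Prlr-/- mice lack the prolactin receptor in every tissue from conception. The P9.5 Prlr-/- mice also received a progesterone pellet, because females of this genotype do not otherwise carry a pregnancy, and the study describes the pellet for that group alone. In the pregnant groups, genotype and pellet therefore cannot be told apart. Within Prlr-/- mice, pregnancy and pellet cannot be told apart either, and what is called Prlr-/- pregnancy below holds both. The deleted gene was not checked on the arrays here, since none of the probe sets is named Prlr alone or with others. The study reports, without showing the data, that Prlr alone differed between the genotypes in its array analysis of NP islets.

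Peptide hormones are made as long precursors that are packed into dense-core secretory granules and cut there. Chromogranins and secretogranins are acidic proteins that aggregate with the hormones as the granule forms. Prohormone convertases cut the precursors at pairs of basic residues, and carboxypeptidase E then trims the basic residues that remain. In beta cells this pathway turns proinsulin into insulin and C-peptide. Prolactin and placental lactogen act on islets in pregnancy through the prolactin receptor, which signals by way of JAK2 and STAT5.

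Values are the deposited log2 expression values, in which 1 unit is a doubling of signal, and they are rounded to steps of 0.1. Calls needed both a fold change of 1.5 or more (0.585 on the log2 scale) and an adjusted p below 0.05 in a limma model of the 4 groups, with Benjamini-Hochberg adjustment over all 35511 probe sets. Adjusted p-values below come from this fit. Arrays of 1 stage correlated at 0.972 to 0.988 over all probe sets, and arrays of different stages at 0.931 to 0.969. In Prlr+/+ P9.5 replicate 2, the log2 value of Xist was 3.8, and the other 11 arrays gave 10 to 10.7, while 3 Y-linked genes reached at most 4.2 there. The calls of the 9 genes that use this array are given without it as well. The tissue label was checked on 11 measured beta cell markers, whose mean per array lay between 10.6 and 10.9 in every group. Precision is limited by the 3 arrays of each group. In islets taken whole, fewer cells of a type and less RNA per cell cannot be told apart.

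The promoters of 8 of the 10 genes were in the RefSeq promoter table (build GRCm38.p6), each as 300 bases from 250 before to 50 after the transcription start. Below are the 120 bases before the start of Chgb, Pcsk1 and Pcsk1n, the genes with called differences. Those of Scg2 and Scg5, which hold a motif, and of Chga, the other chromogranin, are given too. Capitals mark exact matches to the cAMP response element TGACGTCA and the STAT5 motif TTCNNNGAA. The Chga window holds tgacgtaa, which differs from the first motif in a single base and was not counted as a match. Both motifs read the same on either strand, do not overlap each other here, and were picked after these promoters had been read.
Chgb (chr2:132781522-132781641, plus strand): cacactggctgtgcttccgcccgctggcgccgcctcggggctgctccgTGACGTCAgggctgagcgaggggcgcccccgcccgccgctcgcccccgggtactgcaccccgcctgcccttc
Pcsk1 (chr13:75089737-75089856, plus strand): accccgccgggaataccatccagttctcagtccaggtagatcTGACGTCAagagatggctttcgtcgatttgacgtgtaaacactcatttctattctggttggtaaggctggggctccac
Scg2 (chr1:79440027-79440146, minus strand): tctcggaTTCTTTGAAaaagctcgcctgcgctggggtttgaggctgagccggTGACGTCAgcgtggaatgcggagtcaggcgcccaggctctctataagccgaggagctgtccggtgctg
Scg5 (chr2:113829092-113829211, minus strand): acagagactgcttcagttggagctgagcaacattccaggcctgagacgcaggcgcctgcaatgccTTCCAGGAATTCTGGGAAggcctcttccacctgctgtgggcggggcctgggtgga
Chga (chr12:102554821-102554940, plus strand): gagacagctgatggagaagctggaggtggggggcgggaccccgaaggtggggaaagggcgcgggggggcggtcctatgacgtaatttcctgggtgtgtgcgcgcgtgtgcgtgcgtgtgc
Pcsk1n (chrX:7919702-7919821, plus strand): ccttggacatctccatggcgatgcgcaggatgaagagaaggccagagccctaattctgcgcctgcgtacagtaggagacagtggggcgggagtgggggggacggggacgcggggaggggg
The cAMP response element was found in 3 of the 8 promoters, against 1.79% of all 32851 promoters of this length. It began 72 bases before the start in Chgb, 78 in Pcsk1 and 68 in Scg2. The STAT5 motif was found in 2 of the 8, in Scg2 once, 113 bases before the start, and in Scg5 as a pair, 55 and 46 bases before it, against 8.3% of all promoters. Neither the Chgb nor the Pcsk1 window holds the STAT5 motif. Of the 3 genes with the exact cAMP response element, Chgb and Pcsk1 were called in Prlr+/+ pregnancy, as 9.93% of all probe sets were. None was called in Prlr-/- pregnancy, where 14.5% of all probe sets were. Pcsk1 did rise there by 0.50 on the log2 scale, under the fold minimum (adjusted p 0.00385 in limma). Scg2 was called in neither genotype, with differences of 0.03 in Prlr+/+ and 0.13 in Prlr-/- pregnancy. The difference between these genes was not tested.

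Chgb encodes chromogranin B, a granin that aggregates in the forming granule. In Prlr+/+ NP islets the 3 arrays gave log2 values of 10.3, 10.6 and 10.5, and in Prlr+/+ P9.5 islets 11.2, 10.9 and 11.1. In Prlr-/- islets the values were 10.3 on all 3 NP arrays and 10.2, 10.3 and 10.4 at P9.5. The 3 Prlr+/+ P9.5 arrays thus stood above the other 9, and the remaining groups overlapped one another. Chgb rose with pregnancy in Prlr+/+ islets by 0.60 on the log2 scale (standard error 0.108), a fold of 1.52, with an adjusted p of 0.00298. For Prlr-/- mice its difference between P9.5 and NP was 0, with a 95% interval of -0.24 to 0.24. At P9.5 it was lower in Prlr-/- than in Prlr+/+ islets, at -0.77 on the log2 scale (standard error 0.108), 1.70-fold lower, with an adjusted p of 0.0111.

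The call of Chgb between genotypes at P9.5 did not hold in every fit. Its adjusted p was 0.142 when only those 2 groups were fitted and 0.0506 after centring on the beta cell markers. Leaving out 1 of the Prlr-/- P9.5 arrays gave 0.0759 (replicate 1) or 0.0527 (replicate 2), and leaving out 1 of the Prlr+/+ P9.5 arrays gave 0.067 (replicate 1) or 0.054 (replicate 3). Without Prlr+/+ P9.5 replicate 2, the array low in Xist, the log2 fold change was -0.85 and the adjusted p 0.0152. In the Prlr+/+ pregnancy comparison the rise of Chgb lies just above the fold minimum. It dropped below that minimum without Prlr+/+ NP replicate 1 (0.52), without Prlr+/+ P9.5 replicate 1 (0.53) or replicate 3 (0.58), after quantile normalization (0.43) and after beta cell centring (0.58), with adjusted p-values of 0.00862 to 0.0156 in these fits. Without Prlr+/+ P9.5 replicate 2 the rise was 0.68, with an adjusted p of 0.00469. Both comparisons use the same 3 Prlr+/+ P9.5 arrays.

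Chga encodes chromogranin A, the other chromogranin. Its values were 12.7, 12.9 and 12.9 in Prlr+/+ NP, 12.9, 12.9 and 12.8 in Prlr-/- NP, 12.7, 12.7 and 12.4 in Prlr+/+ P9.5 and 12.9, 12.9 and 13 in Prlr-/- P9.5 islets. The pregnant genotypes did not overlap, with Prlr-/- above Prlr+/+, the order opposite to that of Chgb. The difference of 0.33 on the log2 scale (95% interval 0.10 to 0.56) had an adjusted p of 0.582 and was not called. In Prlr+/+ islets the pregnancy difference of Chga was -0.23, with an adjusted p of 0.132.

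The log2 ratio of Chgb to Chga within each array removes what the 2 probe sets share in that array. Its level has no meaning of its own, because the probe sets differ, but its differences between groups do. The ratio was -2.4, -2.3 and -2.4 in Prlr+/+ NP and -1.5, -1.8 and -1.3 in Prlr+/+ P9.5 islets, a difference of 0.83 or 1.78-fold with no overlap. The Prlr-/- ratios were -2.6, -2.6 and -2.5 before and -2.7, -2.6 and -2.6 during pregnancy, a difference of -0.07 with overlap. At P9.5 the ratio was 1.10 lower on the log2 scale in Prlr-/- islets, or 2.14-fold. In NP islets the genotypes also did not overlap, but by a difference of only -0.20. Each difference without overlap has an exact permutation p of 0.1 (two-sided, 3 against 3 arrays), the smallest this design allows, and the Prlr-/- pregnancy difference has an exact p of 0.6.

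**Figure D1:**
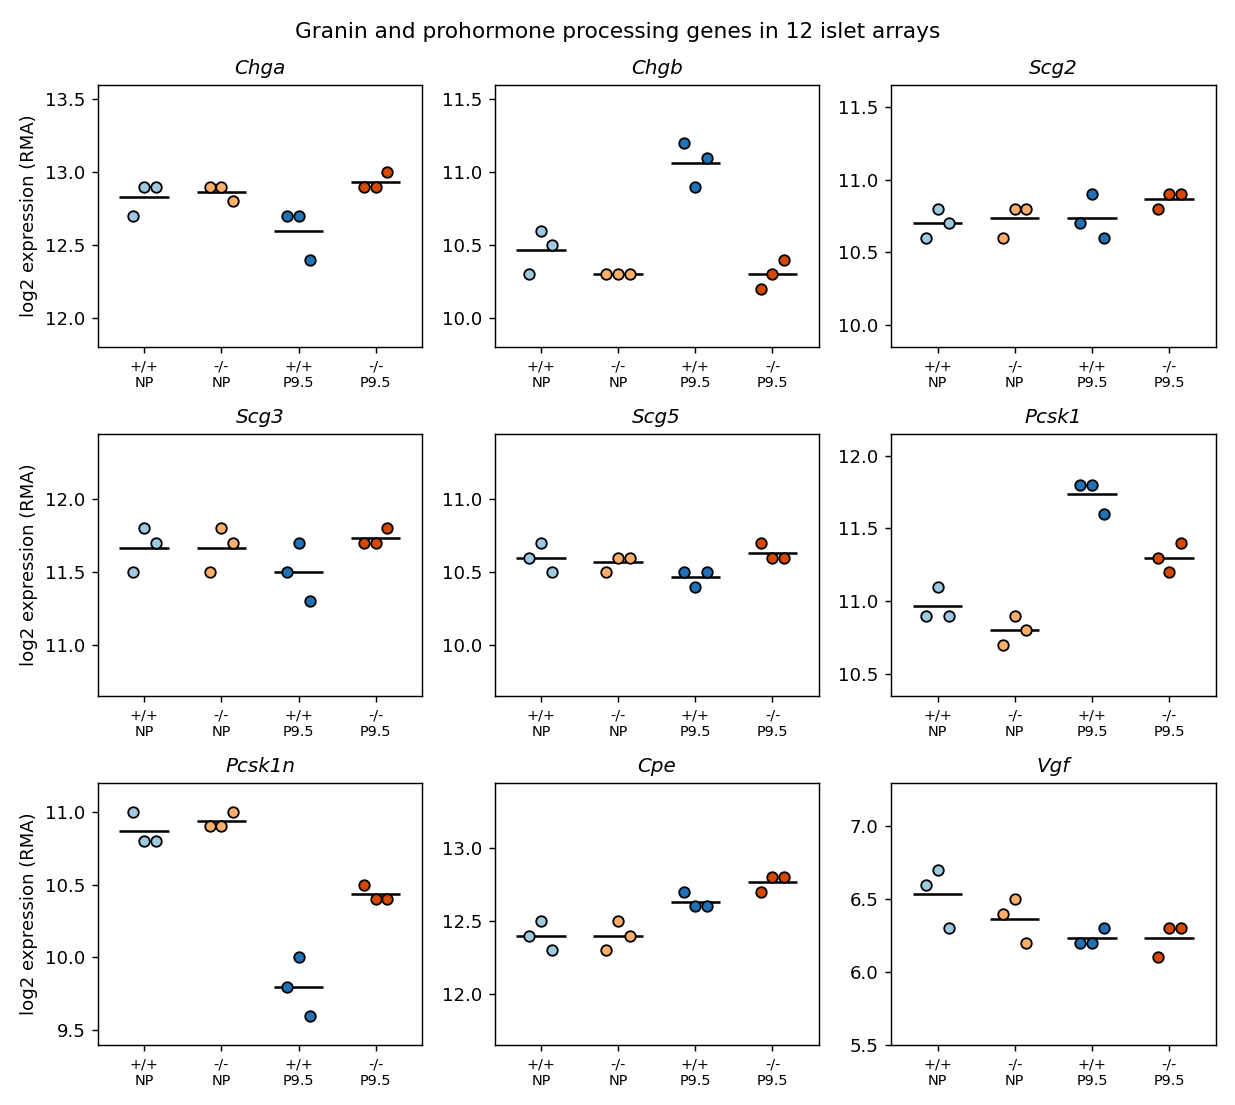
Log2 expression of the 9 measured genes in each of the 12 arrays, with 1 panel a gene, all panels spanning the same log2 range. Points are arrays and lines are group means of 3. Chgb is highest in Prlr+/+ P9.5, Pcsk1n is lowest there, Pcsk1 and Cpe are higher at P9.5 in both genotypes, and the other panels stay within 0.6 units.

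The remaining granins moved little. Scg2, which gives rise to the peptide secretoneurin, lay between 10.6 and 10.9 on all 12 arrays, and its group means were 10.7 in 3 groups and 10.9 in Prlr-/- P9.5 islets. Scg3, which binds chromogranin A at the granule membrane, lay between 11.3 and 11.8, and its lowest value was in Prlr+/+ P9.5 replicate 3. Scg5 encodes 7B2, the chaperone of the convertase that Pcsk2 encodes. It was at 10.5, 10.4 and 10.5 in Prlr+/+ P9.5 and at 10.7, 10.6 and 10.6 in Prlr-/- P9.5 islets, groups that lie 1 rounding step apart, with a log2 difference of 0.17 and an adjusted p of 0.977. Vgf, whose product is cut into several secreted peptides, lay between 6.1 and 6.7, close to the array medians of 5.7 to 5.9. Its mean was 6.53 ± 0.21 (SD, n = 3) in Prlr+/+ NP and 6.23 ± 0.06 (SD, n = 3) in Prlr+/+ P9.5 islets, a difference of -0.30 that did not pass the test at an adjusted p of 0.0984. None of Scg2, Scg3, Scg5 and Vgf was called in any comparison.

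Pcsk1 encodes the convertase PC1/3, which makes the first cut in proinsulin. Its values were 10.9, 11.1 and 10.9 in Prlr+/+ NP and 11.8, 11.8 and 11.6 in Prlr+/+ P9.5 islets. The Prlr-/- values were 10.7, 10.9 and 10.8 in NP and 11.3, 11.2 and 11.4 at P9.5. Both pregnant groups lay above both non-pregnant groups, and the pregnant Prlr+/+ arrays lay above the pregnant Prlr-/- arrays. Pcsk1 rose in Prlr+/+ islets by 0.77 on the log2 scale (standard error 0.103), a fold of 1.70 with an adjusted p of 0.000739. In Prlr-/- islets the difference was 0.50 (standard error 0.103, adjusted p 0.00385), a fold of 1.41 that is under the fold minimum, so it was not called. At P9.5 the genotypes differed by -0.43 with an adjusted p of 0.238.

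Pcsk1n encodes proSAAS, a granin-like protein from which an inhibitor of PC1/3 is cut. Its values were 11, 10.8 and 10.8 in Prlr+/+ NP and 9.8, 10 and 9.6 in Prlr+/+ P9.5 islets. The Prlr-/- values were 10.9, 10.9 and 11 in NP and 10.5, 10.4 and 10.4 at P9.5. The non-pregnant groups overlapped at the top, the Prlr-/- P9.5 arrays lay below them and the Prlr+/+ P9.5 arrays lay lowest. Pcsk1n fell in Prlr+/+ islets by 1.07 on the log2 scale (standard error 0.110), to a level 2.09-fold lower, with an adjusted p of 0.000282. In Prlr-/- islets the difference was -0.50 (standard error 0.110, adjusted p 0.00548), a fold of 1.41 that is under the fold minimum. At P9.5 Pcsk1n was higher in Prlr-/- than in Prlr+/+ islets by 0.63 (standard error 0.110), a fold of 1.55, with an adjusted p of 0.0446.

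This last call is close to the threshold. It was lost on leaving out any 1 of 10 of the 12 arrays (adjusted p 0.0724 to 0.215), and held only without Prlr+/+ NP replicate 1 or without Prlr+/+ P9.5 replicate 2, where the log2 fold change was 0.73 and the adjusted p 0.0279. It was also lost in the fit of the 2 groups alone (adjusted p 0.336), after median centring (0.101) and after quantile normalization (0.0576). The Prlr+/+ calls of Pcsk1 and Pcsk1n in pregnancy held without each array in turn, and without Prlr+/+ P9.5 replicate 2 they were 0.73 and -1.17.

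The ratio of Pcsk1n to Pcsk1 within an array sets the inhibitor against its convertase. It was 0.1, -0.3 and -0.1 in Prlr+/+ NP and -2.0, -1.8 and -2.0 in Prlr+/+ P9.5 islets, a difference of -1.83, or 3.56-fold. The Prlr-/- ratios were 0.2, 0 and 0.2 in NP and -0.8, -0.8 and -1 at P9.5, a difference of -1, or 2-fold. At P9.5 the ratio was higher in Prlr-/- islets by 1.07, or 2.09-fold, and the groups in these 3 comparisons did not overlap (exact permutation p of 0.1 each, two-sided, 3 against 3 arrays). The non-pregnant genotypes overlapped, with a difference of 0.23 and an exact permutation p of 0.2. Because Pcsk1 and Pcsk1n moved in opposite directions, the ratio changed with pregnancy by more than either gene did, in both genotypes.

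**Figure D2:**
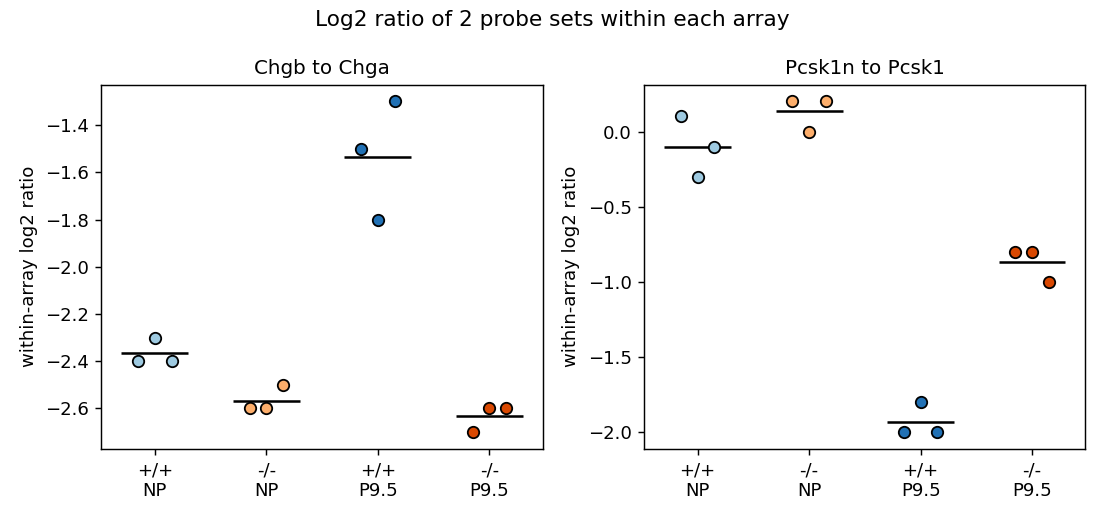
Log2 ratio of Chgb to Chga (left) and of Pcsk1n to Pcsk1 (right) within each of the 12 arrays, by group. Points are arrays and lines are group means. The left ratio is highest in Prlr+/+ P9.5 islets, at -1.8 to -1.3, and at -2.7 to -2.3 in the other groups, and the right ratio is lower in both pregnant groups, more so in Prlr+/+. The 2 vertical axes have different ranges.

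Cpe encodes carboxypeptidase E, which removes the basic residues left after the convertases have cut. It was at 12.4, 12.5 and 12.3 in Prlr+/+ NP and at 12.7, 12.6 and 12.6 in Prlr+/+ P9.5 islets, a difference of 0.23 with an adjusted p of 0.0867. The Prlr-/- values were 12.3, 12.5 and 12.4 in NP and 12.7, 12.8 and 12.8 at P9.5, a difference of 0.37 (standard error 0.0907) with an adjusted p of 0.0101, under the fold minimum. Pregnant and non-pregnant arrays did not overlap in either genotype, and the pregnant genotypes overlapped each other.

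Taking the 9 genes by comparison, none was called between genotypes in NP islets by limma, and none had an unadjusted p below 0.05, where 0.101% of all probe sets were called and 12.3% had such a p. No gene of the 9 was without overlap, against 11.7% of all probe sets. The 36 probe sets called here became 172 without Prlr+/+ NP replicate 2. The log2 differences of the 9 genes lay between -0.17 and 0.07. At P9.5, 2 of 9 were called, against 0.231% of all probe sets. These were Chgb as lower in Prlr-/- islets, as 0.206% of all probe sets were, and Pcsk1n as higher, as 0.0253% were. The 82 probe sets called here became 47 and 49 without Prlr-/- P9.5 replicates 1 and 3, and 51 without Prlr+/+ P9.5 replicate 1. At P9.5 5 of 9 genes, Chga, Chgb, Scg5, Pcsk1 and Pcsk1n, did not overlap between genotypes, which was 55.6% of them against 6.08% of all probe sets. In Prlr+/+ islets 3 of 9 were called in pregnancy, against 9.93% of all probe sets. Chgb and Pcsk1 were called as higher, against 5.73%, and Pcsk1n as lower, against 4.21%. In the same comparison 4 of 9 did not overlap, against 32.4%.

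None of the 9 was called by limma in pregnancy of Prlr-/- mice, against 14.5% of all probe sets. With no fold minimum, Pcsk1, Pcsk1n and Cpe passed, 3 of 9 against 33.4%, and the same 3 had an unadjusted p below 0.05, against 44.9%. The 3 that did not overlap were 33.3% of the genes against 41.8% of all probe sets. The share in these islets was therefore at or below that of the array as a whole. In this comparison the result depends on scaling. Median centring moved the median of all probe sets by 0.17 on the log2 scale and brought Pcsk1 over the fold minimum (0.67), while quantile normalization did so for Pcsk1n (-0.65). The array medians used in the centring are themselves rounded to steps of 0.1, so this move is coarse.

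The interaction of pregnancy and genotype tests whether the difference between P9.5 and NP islets was the same in Prlr-/- as in Prlr+/+ mice. Only the P9.5 Prlr-/- mice had the pellet, so the interaction holds any effect of the pellet as well. None of the 9 was called, against 0.0788% of all probe sets (28, or 16 without Prlr-/- P9.5 replicate 3), and 2 of 9 had an unadjusted p below 0.05, against 9.85%. These were Chgb, with an interaction of -0.60 (standard error 0.153, unadjusted p 0.00214 and adjusted p 0.245 in limma), and Pcsk1n, with 0.57 (standard error 0.155, unadjusted p 0.00352 and adjusted p 0.271 in limma). For Pcsk1 it was -0.27 with an adjusted p of 0.581. The Prlr+/+ response of these genes was thus called while its difference from the Prlr-/- response did not pass the test over all probe sets.

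**Figure D3:**
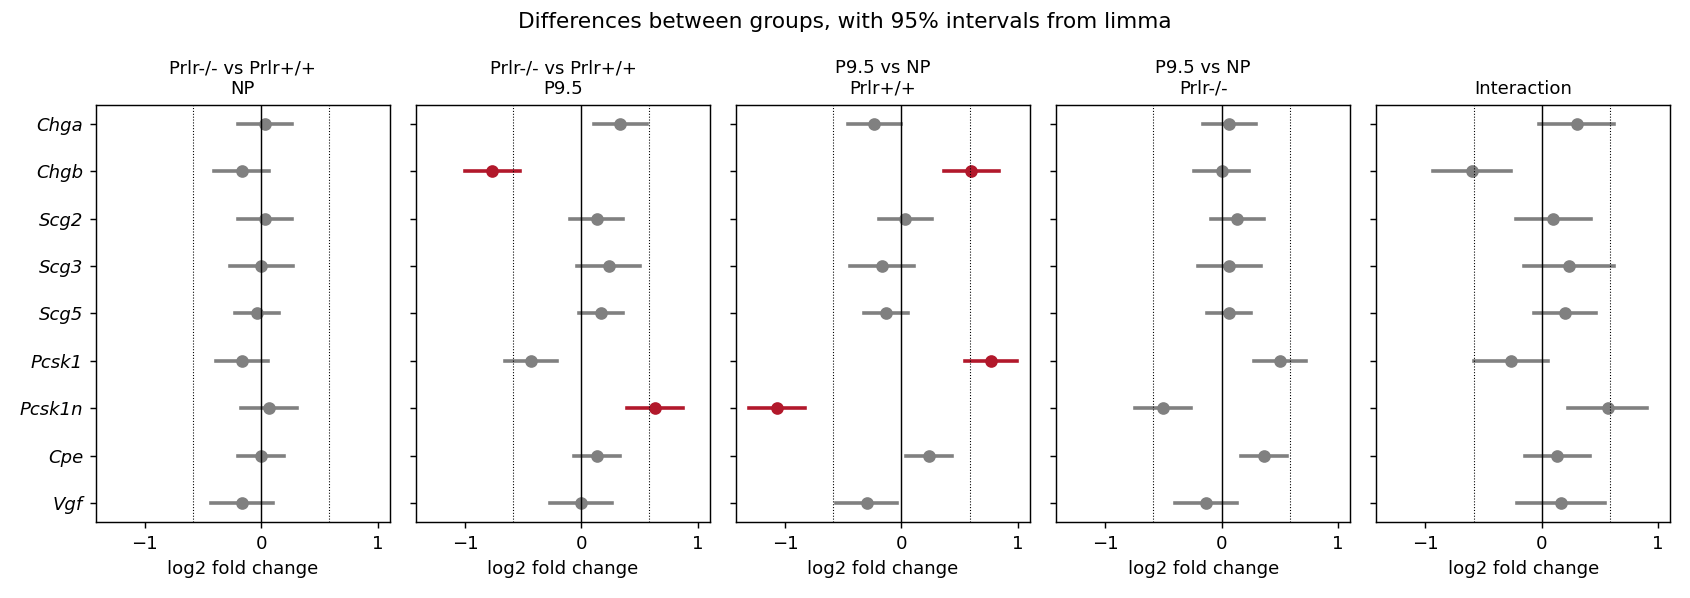
Log2 fold change of the 9 genes in the 5 comparisons, with 95% intervals from limma. Red points were called, dotted lines mark the fold minimum of 1.5, and the interaction is the P9.5 to NP difference in Prlr-/- minus that in Prlr+/+ islets. The called points are Chgb and Pcsk1n between genotypes at P9.5, and Chgb, Pcsk1 and Pcsk1n in Prlr+/+ pregnancy.

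The other genes of the pathway were taken from 4 lists. Of 18 other processing enzymes, all measured, Furin was the 1 called in Prlr+/+ pregnancy (5.56%, against 9.93% of all probe sets). Furin, which cuts precursors in the trans-Golgi network, fell by 0.80 on the log2 scale (standard error 0.142, adjusted p 0.00275), from 8.17 ± 0.32 to 7.37 ± 0.06 (SD, n = 3 each). Its Prlr-/- difference was -0.53 with an adjusted p of 0.0141, under the fold minimum. Cpm, a carboxypeptidase of the cell membrane, was the 1 enzyme called in Prlr-/- pregnancy (5.56%, against 14.5% of all probe sets) and rose by 0.73 (adjusted p 0.00201). The median over the 18 enzymes was -0.08 in Prlr+/+ and 0.08 in Prlr-/- pregnancy, against -0.07 over all probe sets in each.

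Of 18 measured hormone and peptide precursors, 2 rose and 1 fell in each genotype. That is 16.7% called, against 9.93% of all probe sets in Prlr+/+ and 14.5% in Prlr-/- pregnancy. Ucn3, the urocortin of mature beta cells, rose by 0.60 in Prlr+/+ (adjusted p 0.0237) and by 0.60 in Prlr-/- islets (adjusted p 0.0169). Nucb2, the precursor of nesfatin, rose by 0.60 (adjusted p 0.0131) and by 1.07 (adjusted p 0.000394). Cartpt fell in Prlr+/+ islets by 0.70 (adjusted p 0.0172) and Gal, which encodes galanin, fell in Prlr-/- islets by 0.97 (adjusted p 0.0111). Of the main cargo of the granules, Ins2 and Iapp were not called. Ins1 has no probe set of its own here, so insulin was seen through Ins2 alone. The Ins2 probe set read lower than those of Gcg (group means of 13.6 to 13.8) and Iapp (12.4 to 12.6). How well it follows insulin RNA was not tested. Ins2 stood at 10.8 ± 0.2 in Prlr+/+ NP and 10.8 ± 0.1 in Prlr+/+ P9.5 islets (SD, n = 3 each), and its pregnancy difference in Prlr-/- islets was -0.07 with an adjusted p of 0.657. Iapp differed by 0.17 and 0.10 with pregnancy in the 2 genotypes, with adjusted p-values of 0.178 and 0.377.

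Of 26 genes of the granule membrane and of granule formation, 3 rose and 1 fell in Prlr+/+ pregnancy, and 6 rose and none fell in Prlr-/- pregnancy. The called shares were 15.4% against 9.93% of all probe sets in Prlr+/+ and 23.1% against 14.5% in Prlr-/- islets. Rab2a and Vps41, which act in granule formation, and Atp6v1a, a subunit of the pump that acidifies granules, rose in both genotypes. Rab2a rose by 0.60 in each, Vps41 by 0.70 and 0.80, and Atp6v1a by 0.77 and 0.80, with adjusted p-values from 0.000258 to 0.000986. Ptprn, the granule protein known as IA-2, fell by 0.97 in Prlr+/+ islets (standard error 0.104, adjusted p 0.000374), and in Prlr-/- islets its difference was -0.50 with an adjusted p of 0.00423, under the fold minimum. Ccdc186, Ica1 and Atp6ap2 were called as higher in Prlr-/- islets with log2 fold changes of 0.73, 0.77 and 0.63. The median of the list was 0.17 in Prlr+/+ and 0.32 in Prlr-/- pregnancy.

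Of 20 measured genes of granule exocytosis, 1 rose and 4 fell in Prlr+/+ pregnancy, while 4 rose and none fell in Prlr-/- pregnancy. The called shares were 25% against 9.93% of all probe sets in Prlr+/+ and 20% against 14.5% in Prlr-/- islets. Syt4 rose in both, by 0.70 and 0.73. The calcium sensors Syt7 and Doc2b, the fusion regulator Cplx1 and the synaptotagmin Syt13 fell in Prlr+/+ islets, by 0.63, 0.80, 0.63 and 0.63 (adjusted p 0.000775 to 0.00734). The Prlr-/- differences of these 4 lay between -0.53 and -0.20, and none was called. Snap25, Cadps2 and Nsf were called as higher in Prlr-/- islets at 0.63, 0.70 and 0.60. No gene of the 4 lists was called between genotypes at either stage or in the interaction, so a difference between genotypes in these responses did not pass the test.

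**Figure D4:**
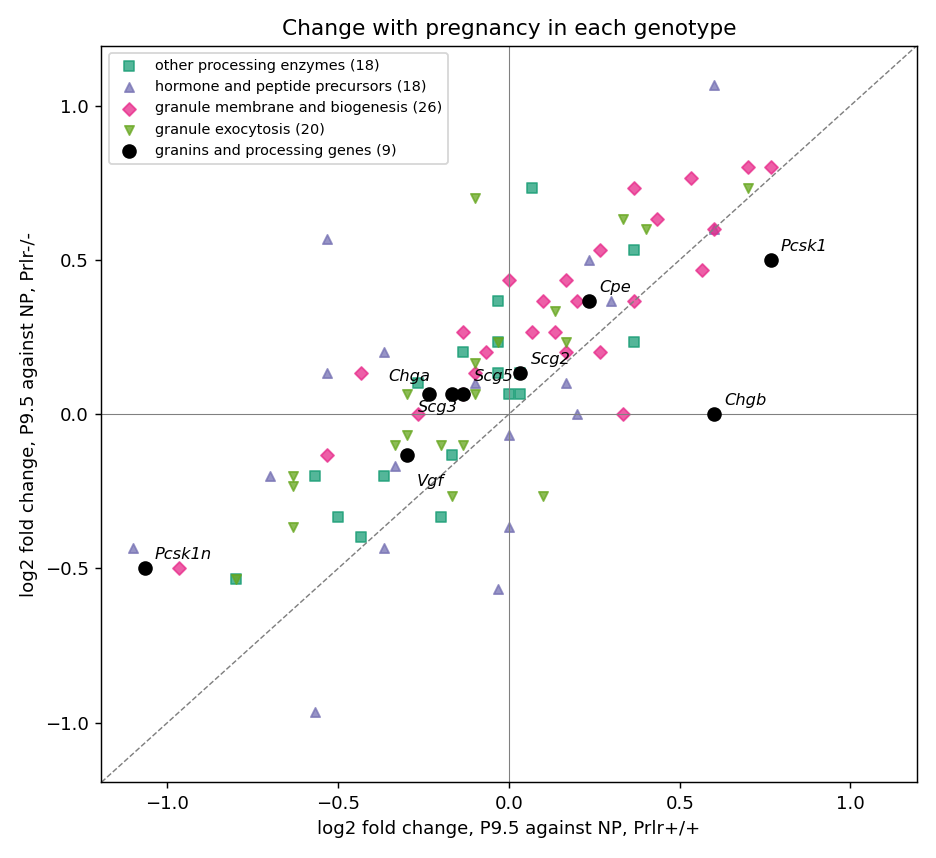
Log2 fold change of P9.5 against NP in Prlr+/+ (horizontal) and Prlr-/- islets (vertical) for the 9 genes (black) and the 82 measured genes of the 4 pathway lists, with equality on the dashed line. Chgb lies on the zero line of Prlr-/- islets at 0.60 in Prlr+/+, Pcsk1 lies below the dashed line and Pcsk1n above it. The 2 axes share no arrays.

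The genes whose pattern over the 12 arrays was most like that of the called genes were sought among the other 19937 genes with a probe set. These correlations describe 4 groups that differ in mean, so they rest largely on the group means. Closest to Chgb were Ogdhl (Pearson r 0.957), a protein related to an enzyme of the citric acid cycle, Enox1 (0.942) and Igfals (0.935), which binds circulating insulin-like growth factors. Ogdhl was at 10.1 in Prlr+/+ P9.5 and at 8.6 to 9.0 in the means of the other groups, and like Chgb it was called in Prlr+/+ pregnancy (1.10) and between genotypes at P9.5 (-1.43). Closest to Pcsk1n were Igf2 (0.972), Ank (0.969), a membrane protein of pyrophosphate export, and Syt13 (0.942). Ank and Syt13 were called as lower in Prlr+/+ pregnancy. Igf2 was called in no comparison. Its Prlr+/+ pregnancy difference of -0.50 was under the fold minimum, and its group means were 6.0 to 6.5, near the array medians of 5.7 to 5.9. Closest to Pcsk1 were Acsl4 (0.975), an acyl-CoA synthetase, Pstpip2 (0.972) and Eps15 (0.971), an endocytosis adaptor, each called as higher in pregnancy in both genotypes.

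Single arrays moved several of the 9 genes together. Prlr+/+ P9.5 replicate 3 and Prlr-/- NP replicate 1 each gave the lowest value of their group for 5 of 9 genes. Prlr+/+ NP replicate 2 gave the highest of its group for 7 of 9. Of the 11 beta cell markers, Ucn3 rose and the transcription factors Mafa and Nkx6-1 fell in Prlr+/+ pregnancy, by 0.67 and 0.73 on the log2 scale, while the median of the list was 0.03. Of the markers of other cells, 4 measured delta and PP cell genes had array means of 10.3 to 10.7 in Prlr+/+ P9.5 and of 10.8 to 10.9 in Prlr-/- P9.5 islets, and 2 of the 4 were higher in Prlr-/- at an unadjusted p below 0.05. None of the 4 was called there. Duct markers, 4 measured, had array means of 6.43 to 6.50 in Prlr+/+ NP, 6.08 to 6.15 in Prlr+/+ P9.5 and 6.28 to 6.35 in Prlr-/- P9.5 islets, groups that did not overlap. In Prlr-/- NP islets these means were 6.45 to 6.675, which overlapped Prlr+/+ NP. In Prlr+/+ pregnancy 1 of the 4 duct markers fell (Krt7, -0.80, adjusted p 0.00335), as did 1 of 5 endothelial markers (Plvap, -0.67, adjusted p 0.00296) and 1 of 5 immune markers (Cd74, -0.77, adjusted p 0.00568). Array means over the 5 endothelial markers were 7.9 to 8.02 in Prlr+/+ NP and 7.66 to 7.94 in Prlr+/+ P9.5 islets, and over the 5 immune markers 6.2 to 6.54 and 6.24 to 6.5. None of the alpha cell, stromal, and neuron and glia markers was called in any comparison. Of 10 measured acinar markers, 8 fell in Prlr-/- pregnancy (Cpa1, Cela1, Cela2a, Cela3b, Prss2, Ctrb1, Cel and Rbpjl, by 0.60 to 1.87 on the log2 scale) with a list median of -1.30, and their array means were 10.4 to 11.2 in Prlr-/- NP and 8.87 to 10.3 in Prlr-/- P9.5 islets. In Prlr+/+ islets these means were 10.1 to 10.5 before and 9.23 to 10.3 during pregnancy, and none was called. The part of these cells in the values of the 9 genes was not tested. No marker of any cell type listed was called between genotypes.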

How the data were processed

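Islet RNA was measured on 12 Affymetrix mouse gene arrays, 3 biological replicates in each of 4 groups. The authors corrected, normalised and summarised the raw arrays with the aroma.affymetrix implementation of robust multichip analysis, and deposited 1 log2 value per probe set and array, in steps of 0.1. Background correction and quantile normalisation are thus part of every value, and they act on a shift shared by all genes of an array. Whether such shifts remain in the deposited values cannot be told from the array medians, which lay between 5.7 and 5.9 and come in steps of 0.1. In Prlr-/- pregnancy the median difference of all probe sets was -0.07. It was 0.10 after median centring, a move of 0.17, and 0.01 after quantile normalization. The table holds 35511 probe sets, of which 21789 carry 1 gene symbol, 1621 several and 12101 none in the array annotation. Of these, 21698 were matched to current symbols. The genome build of the probe sets is not given in the sources used here, so no gene coordinates are printed. Promoters came from the RefSeq table of GRCm38.p6.

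Group means of all 12 arrays were fitted to all probe sets in R 4.3.3 with limma 3.58.1 (lmFit and eBayes, no covariate), and 5 contrasts were tested with Benjamini-Hochberg adjustment. Fitting the 4 groups together gives them 1 estimate of the spread. A probe set was called at a fold change of at least 1.5 and an adjusted p under 0.05. P-values measure the spread between the biological replicates of the labels. Ratios of a pair of probe sets were compared by exact permutation of 3 against 3 arrays. The planned ratio of Scg5 to Pcsk2 was not computed, since Pcsk2 has no probe set of its own here. The code of the fit was run on simulated data with known changes and independent noise, without shifts shared by all genes of an array. That run checks the code and does not measure how reliable calls of the size seen here are.

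The members and lists were chosen with earlier results of these data known. The genes named are all members, the called genes of each list with, from the pathway lists, some of the 2 of largest change per comparison, and for each called member the 3 genes of highest correlation. Alternatives were a fit of the 2 groups compared, a replicate block, each array left out in turn, no dim probe sets (the lowest 40%), only probe sets with 1 symbol, quantile normalization, median centring, weights for arrays, a robust prior with an intensity trend, no fold minimum, a minimum of 2, and the mean over a gene's probe sets. Centring on beta cell markers and counting equal probe sets once were added after the data were seen.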

Additional observations from a re-analysis of the deposited data

How the results depend on the processing

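No alternative reversed a called value. Of 1116 values of the 9 genes in the 5 comparisons under 25 alternatives, 1082 stayed on their side of the thresholds, 29 calls were lost and 5 were gained, and 18 values called in no fit changed sign. The main fit called only 2 genes between genotypes at P9.5 and 3 in Prlr+/+ pregnancy. Most of the values that stayed were therefore uncalled in both fits, and the 29 lost calls all come from these few results. The mean over a gene's probe sets could change nothing, since each of the 9 genes has 1 probe set. Between genotypes at P9.5, the 2 called genes became 0 in the fit of the 2 groups alone and with a fold minimum of 2, and 1 with median centring, quantile normalization (Chgb in both) or beta cell centring (Pcsk1n), the last chosen after seeing the data. In Prlr+/+ pregnancy the 3 called genes became 1 with a fold minimum of 2 (Pcsk1n). In Prlr-/- pregnancy the count of 0 became 1 with median centring (Pcsk1), 1 with quantile normalization (Pcsk1n) and 3 with no fold minimum. The cause was not tested. Leaving out each array in turn gave 0 to 2 called genes between genotypes at P9.5, 2 to 3 in Prlr+/+ pregnancy, and 0 to 0 between NP genotypes, in Prlr-/- pregnancy and in the interaction. It gave ratio differences of Chgb to Chga of -0.23 to -0.17 between NP genotypes, -1.23 to -0.98 between P9.5 genotypes, 0.72 to 0.97 in Prlr+/+ and -0.08 to -0.03 in Prlr-/- pregnancy. Those of Pcsk1n to Pcsk1 were 0.13 to 0.33, 1.03 to 1.13, -1.93 to -1.73 and -1.07 to -0.93 in the same order. With the replicate number as a block, 1 gene (Chgb) was called between genotypes at P9.5 and Pcsk1n had an adjusted p of 0.101, and the block changed no other call of the 9 genes. The numbers share no stated origin: deviations from the group means correlated above 0.1 in 7 of 18 same-number pairs (range -0.11 to 0.23), and in 1 of 12 arrays the highest correlation in each other group was with its own number. Median centring moved the median of all probe sets by 0.17 in Prlr-/- pregnancy. Over all probe sets, the 36 called between NP genotypes became 0 in the fit of those 2 groups, 2 among probe sets with 1 symbol, 61 with beta cell centring and 172 without Prlr+/+ NP replicate 2, the 82 at P9.5 became 39 in the fit of those groups and 47 to 85 leaving out each array, and the 28 of the interaction became 96, 81, 63 and 45 with 1 symbol, array weights, no dim probe sets and quantile normalization, and 16 to 38 leaving out each array. Signal near background was not assessed, since the table holds no background measure.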

Other observations

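Among the peptide precursors, the 2 largest differences between genotypes at each stage did not pass the test. Tac1, the precursor of substance P, was at 5.2 to 6.7 in Prlr+/+ NP and 5.0 to 5.2 in Prlr-/- NP islets, a log2 difference of -1.07 with an adjusted p of 0.30 in limma. Npy, which encodes neuropeptide Y, was at 7.7 to 10 and at 7.7 to 8.1 in the same groups (-1.03, adjusted p 0.37), an SD of 1.15 among the 3 Prlr+/+ NP arrays against 0.21 in Prlr-/- NP. Ppy was at 11.2 to 12.6 in Prlr+/+ P9.5 islets and at 12.6 on all Prlr-/- P9.5 arrays, a log2 difference of 0.77 with an adjusted p of 0.780. Pdyn, the precursor of dynorphins, was at 6.5 to 7.5 in Prlr+/+ P9.5 and 7.6 to 8.3 in Prlr-/- P9.5 islets, without overlap, at a log2 difference of 0.80 and an adjusted p of 0.565. Of the processing enzymes, Pam, which amidates peptide ends, was at 11 to 11.2 and 11.3 to 11.5 in those 2 groups, again without overlap, at 0.30 and an adjusted p of 0.671. Cpm differed more there, by 0.37 with an adjusted p of 0.744.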
